A study of Homo sapiens with 13 samples.

Results

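Most messenger RNAs end in a poly(A) tail, but those of the replication-dependent histones end in a stem-loop that is bound by SLBP. Their genes are switched on in S phase by NPAT and CASP8AP2, their ends are cut under the guidance of the U7 small nuclear ribonucleoprotein, and the transcripts are degraded when DNA synthesis stops. Described here are 10 genes of that pathway, chosen by name: NPAT and CASP8AP2 for transcription, SLBP itself, LSM10, LSM11 and ZNF473 for U7 binding, CPSF3 and SYMPK for cleavage, and ERI1 and UPF1 for decay. All 10 were measured, among 18404 named genes in all, and each had 1 transcript cluster, the array's unit for a gene.

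The cells were SW480, an established human colon cancer line, kept for 6 h in 0.1% DMSO as the solvent control (n = 4), in 100 mM DFO (n = 4), in 50 mM Deferasirox (n = 3) or in 10 mM OICR623 (n = 2). Both DFO, short for deferoxamine, and Deferasirox are drugs given to bind iron, while OICR623 is known here by its code name alone. The doses are given as labelled, are high for cultured cells and differ between the compounds. RNA was read on 13 Affymetrix Human Gene 1.0 ST arrays, whose labelling does not depend on a poly(A) tail, and the series text calls the replicates independent experiments. The design sets OICR623 beside the solvent and both iron-binding drugs.

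Array medians formed 3 levels of signal, and no level was made up of a single group. DMSO 1 and DFO 1 made up the high level (7.17 to 7.19 on the log2 scale), while DMSO 4, DFO 4 and Deferasirox 3 were in the low level (6.52 to 6.55) and the other 8 arrays in the middle level (6.64 to 6.69). OICR623 had arrays in the middle level alone. Changes are therefore from limma with the level as a block, on the log2 scale, with Benjamini-Hochberg adjustment over all 18404 genes and a call at an adjusted p under 0.05. A level-centred value is a log2 signal minus the mean of all arrays of its level. In the high level, DMSO 1 and DFO 1 therefore have level-centred values of equal size and opposite sign, which restate a single difference. Each level also holds a different mix of groups, so level-centred values of different levels are not fully comparable. Among epithelial markers EPCAM had a mean log2 signal of 9.64, KRT8 of 12.67 and KRT18 of 13.02, but CDH1 stood at 5.52, and 5 of the 9 measured stood above the median gene (7.46), with VIL1, KRT20 and CEACAM5 below it as well; the leukocyte marker PTPRC stood at 3.38. PTPRC was the lowest of 9 measured markers of other cell types, with means of 3.38 to 9.18. Of the 9, 3 stood above the median gene: CD68 (9.18), ACTA2 (8.23) and COL1A1 (7.77). For any compound limma called 0 of the 9 (0 at an unadjusted p under 0.05).

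The deposited table names genes and holds no sequence. To set a histone gene beside genes that serve it, the 250 bases before the transcription start are given for SLBP, which was called, for the transcription pair CASP8AP2 and NPAT, and for H2BC14, one of the histone genes that fell most under DFO. They are RefSeq sequences of GRCh38.p14, from chr4:1712320-1712569 on the minus strand for SLBP, chr6:89829630-89829879 on the plus strand for CASP8AP2, chr11:108222639-108222888 on the minus strand for NPAT and chr6:27814772-27815021 on the plus strand for H2BC14. Capitals mark matches, on either strand, to the letters CCAAT, to the TATA box form TATAAA, to the octamer ATTTGCAT and to 4 forms of the E2F motif (TTTGGCGC, TTTCCCGC, TTTGCCGC and TTTCGCGC).
SLBP: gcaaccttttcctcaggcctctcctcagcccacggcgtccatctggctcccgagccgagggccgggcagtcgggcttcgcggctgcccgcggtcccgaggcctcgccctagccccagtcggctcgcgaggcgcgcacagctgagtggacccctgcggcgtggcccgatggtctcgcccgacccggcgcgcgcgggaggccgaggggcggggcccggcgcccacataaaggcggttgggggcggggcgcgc
CASP8AP2: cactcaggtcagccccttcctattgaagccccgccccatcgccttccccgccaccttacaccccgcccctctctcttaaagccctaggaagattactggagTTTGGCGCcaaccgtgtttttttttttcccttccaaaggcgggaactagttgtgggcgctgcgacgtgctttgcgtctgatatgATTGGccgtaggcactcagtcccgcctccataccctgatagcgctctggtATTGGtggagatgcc
NPAT: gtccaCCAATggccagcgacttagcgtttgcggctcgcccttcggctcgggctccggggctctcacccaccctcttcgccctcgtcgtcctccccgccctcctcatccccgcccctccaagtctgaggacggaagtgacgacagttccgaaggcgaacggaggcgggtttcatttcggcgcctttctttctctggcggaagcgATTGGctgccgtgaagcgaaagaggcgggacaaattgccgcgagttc
H2BC14: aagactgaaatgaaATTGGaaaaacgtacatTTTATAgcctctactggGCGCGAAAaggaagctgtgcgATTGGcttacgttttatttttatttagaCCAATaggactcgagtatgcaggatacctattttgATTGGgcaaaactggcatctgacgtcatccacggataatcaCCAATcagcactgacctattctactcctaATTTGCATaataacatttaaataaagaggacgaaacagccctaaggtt

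H2BC14 held 5 CCAAT matches, 1 TATAAA, 1 octamer and 1 E2F match, and SLBP held none of the 4 motifs in this window. In H2BC14 the TATAAA match lay 219 to 214 bases before the start and the E2F match 202 to 195. Both read on the strand opposite to the gene. CASP8AP2 held 1 E2F match and 2 of CCAAT, and NPAT 2 of CCAAT. Promoters of 8 of the 10 factors were at hand, those of ZNF473 and ERI1 were not used here, and of the 8, CCAAT was in 4, the E2F motif in 2 (CASP8AP2 and CPSF3), and TATAAA and the octamer in 0. Among 64 promoter entries of 60 replication-dependent histone genes, 85.9% held CCAAT, 65.6% TATAAA, 39.1% the octamer and 18.8% the E2F motif. Over all 35116 promoter entries of the same length the shares were 32%, 10.7%, 1.63% and 2.79%. A match is a description of letters and not a site of binding.

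The histone transcripts themselves fell with each compound. Of 52 measured replication-dependent histone genes, 49 were lower and 0 higher under DFO, where 2.72% of all genes were lower, with a median change of -1.45 beside a median of 0.00 over all genes. H1-5, a linker histone gene, fell by 3.21 (SE 0.20, adjusted p = 3.5e-06), and H3C12, H2AC15 and H2BC14 changed by -2.90, -2.29 and -2.25. Under Deferasirox 48 were lower and 0 higher (3% of all genes lower), with a median of -1.25, and H1-5, H3C12, H3C1 and H1-2 changed by -3.05, -2.65, -2.08 and -2.01. Under OICR623 27 were lower and 0 higher (0.397% of all genes lower), with a median of -0.67, led by H3C12 at -1.70, H1-5 at -1.35, H2AC15 at -1.29 and H3C1 at -1.28. Without a block the counts called were 25, 24 and 0, and the count for OICR623 was 7 without OICR623 1, 13 without OICR623 2, 16 without DMSO 3 and 17 without DMSO 2. In these bulk samples fewer cells in S phase and less histone RNA per cell cannot be told apart. Many of these genes are near-identical copies, so signal may be shared between them.

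NPAT, a substrate of cyclin E and CDK2 that gathers at histone gene clusters, passed the test under none of the compounds. Its log2 signal was 10.10 and 10.21 in DMSO 1 and DFO 1 of the high level, and 9.25, 9.55 and 9.30 in DMSO 4, DFO 4 and Deferasirox 3 of the low level. In the middle level it was 9.38 and 9.24 with DMSO, 9.49 and 9.35 with DFO, 9.32 and 9.42 with Deferasirox, and 9.38 and 9.25 with OICR623. DFO lay above DMSO in the mean of each level, by 0.11 in the high level, 0.11 in the middle level and 0.30 in the low level, although the level-centred groups overlapped. Each of the 4 DFO arrays also lay above the DMSO array of its number. The labels state no pairing, and the share of all genes with this pattern was not counted. The change was 0.16 under DFO (SE 0.06, 95% interval 0.03 to 0.29, limma adjusted p = 0.20). With limma blocked by replicate number, on the 8 DMSO and DFO arrays, the change is the same by design (adjusted p = 0.15). It was 0.05 under Deferasirox (interval -0.09 to 0.19) and 0.02 under OICR623 (interval -0.15 to 0.18), the latter turning to between -0.08 and -0.04 without a block, with the replicate block, with arrays centred on their medians and after quantile normalization.

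CASP8AP2, also called FLASH, joins NPAT at the histone genes and binds LSM11 during cleavage. In DMSO 1 to 4 its log2 signal was 8.58, 7.47, 7.32 and 7.2, and in DFO 1 to 4 it was 8.71, 7.56, 7.58 and 7.52. In Deferasirox 1 to 3 it was 7.43, 7.70 and 7.58, and in OICR623 1 and 2 it was 7.53 and 7.46. All 4 level-centred DFO arrays lay above all 4 of DMSO, a pattern found upward in 5.86% of all genes (10.7% for Deferasirox and 9.26% for OICR623), while Deferasirox 1 lay among the DMSO arrays. The change was 0.20 under DFO (SE 0.07, interval 0.06 to 0.35, adjusted p = 0.13) and 0.23 under Deferasirox (SE 0.07, interval 0.07 to 0.39, adjusted p = 0.11), so neither passed although both intervals lay above 0. The change under Deferasirox was 0.08 without a block, 0.04 with the replicate block, 0.09 after centring and 0.11 after quantile normalization, and it was called without Deferasirox 1 (0.32, adjusted p = 0.022). Under OICR623 it was 0.13 (interval -0.06 to 0.31) and turned to between -0.15 and -0.01 without the level block, with the replicate block, after centring and after quantile normalization.

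SLBP follows the histone transcript from its processing to its translation and is itself made mostly in S phase. It was the 1 factor called higher under both DFO and Deferasirox. CASP8AP2, with changes of 0.20 and 0.23, was not called, so the call and not the size sets SLBP apart. The log2 signal of SLBP was 10.97, 10.02, 9.99 and 9.95 in DMSO 1 to 4, and 11.16, 10.22, 10.15 and 10.26 in DFO 1 to 4. With Deferasirox 1 to 3 it was 10.14, 10.21 and 10.15, and with OICR623 1 and 2 it was 10.09 and 10.06. Within every level all arrays of a compound lay above those of DMSO: DFO by 0.19 (high), 0.18 (middle) and 0.31 (low), Deferasirox by 0.17 and 0.20 in the middle and low levels, and OICR623 by 0.07 in the middle level. All level-centred arrays of each compound lay above all of DMSO. This was so for 5.86%, 10.7% and 9.26% of all genes under DFO, Deferasirox and OICR623.

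SLBP (transcript cluster 8098904) rose by 0.22 under DFO (1.16-fold, SE 0.04, interval 0.13 to 0.30, limma adjusted p = 0.0086) and by 0.17 under Deferasirox (1.13-fold, SE 0.04, interval 0.08 to 0.27, limma adjusted p = 0.041). Under OICR623 the change was 0.08 (1.06-fold, interval -0.03 to 0.19, adjusted p = 0.64), and it turned to between -0.08 and -0.03 without a block, with the replicate block, with arrays centred on their medians and after quantile normalization. SLBP was also the 1 factor of 10 that passed the F test of any difference among the 4 groups (adjusted p = 0.031), which 4.27% of all genes passed. That call was lost without a block, with the replicate block, with the level as a random block, after either normalization, in the middle level alone and without any 1 of 8 arrays (DMSO 2, 3 or 4, DFO 2 or 4, or any of Deferasirox). Its level-centred means were -0.12 ± 0.04 for DMSO (SD, n = 4), -0.04 ± 0.02 for OICR623 (n = 2), 0.05 ± 0.04 for Deferasirox (n = 3) and 0.10 ± 0.04 for DFO (n = 4). No neighbours in that order differed by the test: OICR623 against DMSO as above, OICR623 against Deferasirox with -0.09 (interval -0.21 to 0.02, adjusted p = 0.67) and Deferasirox against DFO with -0.04 (interval -0.14 to 0.05, adjusted p = 0.82).

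The calls of SLBP rest on the level block. DMSO and DFO have equal numbers of arrays in each level, so by design a block leaves the change under DFO the same. Without a block limma did not call it (adjusted p = 1.0), nor with the replicate number as a block over all arrays (adjusted p = 1.0). It was also not called after centring (adjusted p = 1.0), after quantile normalization (adjusted p = 0.71) or in the middle level alone (adjusted p = 0.31). It was called with the replicate block on the 8 DMSO and DFO arrays (adjusted p = 0.042) and without any 1 array (adjusted p = 0.012 to 0.049). Under Deferasirox the call was lost without any 1 of 11 of the 13 arrays (adjusted p up to 0.18), the exceptions being DFO 3 and DFO 4, and with the level as a random block (0.17, adjusted p = 0.13). It was also lost without a block, with the replicate block, after either normalization and in the middle level alone. Without a block the fitted change, which is the one tested, was -0.07, and relative to all genes it was 0.09.

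**Figure D1:**
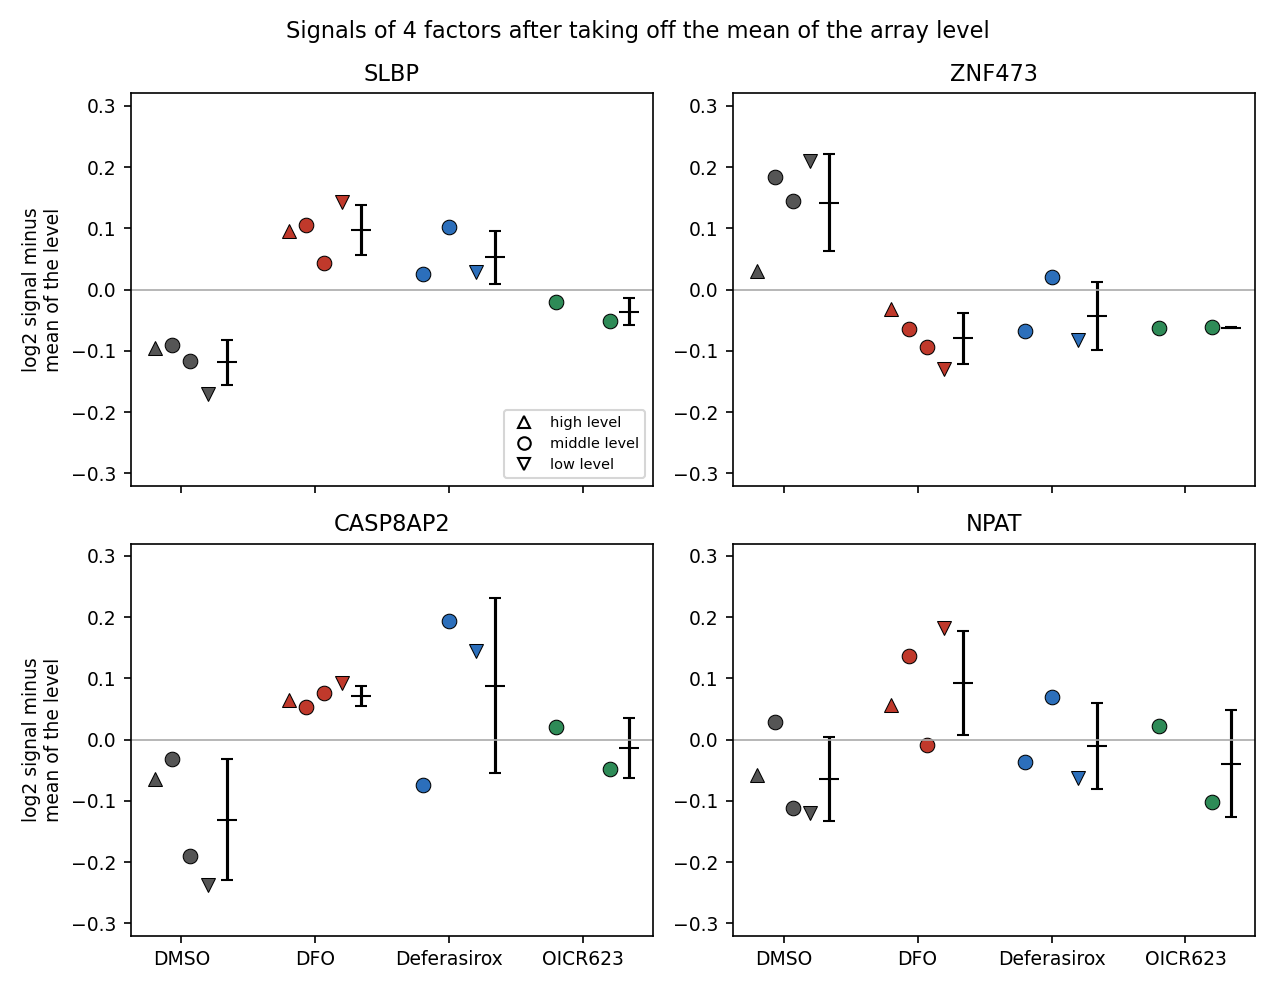
Level-centred log2 signals of SLBP, ZNF473, CASP8AP2 and NPAT (y axis) by group (x axis), with 1 point per array shaped by level and bars for the mean and SD. The 4 DMSO arrays are the lowest for SLBP and the highest for ZNF473, while groups of NPAT overlap.

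The genes whose level-centred signal over the 13 arrays was most like that of SLBP were HILPDA (Pearson r = 0.989), a lipid droplet gene known as a target of hypoxia-inducible factor, TCF19 (r = 0.976), E2F7, an E2F family repressor (r = 0.965), RIMKLA (r = 0.965) and IPMK, an inositol phosphate kinase gene (r = 0.960). These values describe 13 arrays that share treatments and levels, and no p is attached. HILPDA rose by 0.42 under DFO (SE 0.06, adjusted p = 0.0022) and by 0.39 under Deferasirox (SE 0.07), and E2F7 rose by 0.64 and 0.55. Without a block neither was called (adjusted p = 1.0 under DFO and adjusted p = 0.91 under Deferasirox for both), and a rise beside SLBP follows from how they were chosen. Among the factors themselves, SLBP had r = 0.84 with CASP8AP2, 0.81 with NPAT, -0.77 with ZNF473 and -0.31 with LSM10 on the same scale, and between 0.12 and 0.31 with the other 5.

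LSM10 and LSM11 replace a pair of Sm proteins in the ring of the U7 particle, and ZNF473, also called ZFP100, is a zinc finger protein that binds LSM11 and the SLBP-bound stem-loop. Of these ZNF473 (transcript cluster 8030569) was the one that moved. Its log2 signal was 10.27, 9.54, 9.50 and 9.37 in DMSO 1 to 4, and 10.21, 9.29, 9.26 and 9.03 in DFO 1 to 4. With Deferasirox 1 to 3 it was 9.29, 9.38 and 9.08, and with OICR623 1 and 2 it was 9.29 and 9.30. All level-centred arrays of each compound lay below all of DMSO, which was so for 8.22%, 11% and 11.1% of all genes under DFO, Deferasirox and OICR623.

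ZNF473 fell by 0.22 under DFO (SE 0.05, interval -0.32 to -0.12, limma adjusted p = 0.020). Deferasirox gave -0.20 (SE 0.05, interval -0.31 to -0.08, adjusted p = 0.055) and OICR623 gave -0.22 (SE 0.06, interval -0.36 to -0.09, adjusted p = 0.17), neither of them called. The differences between compounds were 0.03 for Deferasirox against DFO (interval -0.09 to 0.14) and 0.00 for OICR623 against DFO (interval -0.13 to 0.13). DFO lay below DMSO by 0.06 (high), 0.24 (middle) and 0.34 (low). The call under DFO was lost without DMSO 2, 3 or 4 and without DFO 2, 3 or 4 (adjusted p up to 0.096), without a block, after either normalization, in the middle level alone (adjusted p = 0.14), and with the replicate number as a block (adjusted p = 0.085 on 8 arrays, adjusted p = 1.0 on all). Under Deferasirox limma called ZNF473 without the high level (-0.22, adjusted p = 0.021), a setting chosen after the data had been seen. Leaving out DMSO 1 or DFO 1 is the same fit (adjusted p = 0.021 for each), because the high level holds these arrays alone. ZNF473 was also called with the dimmest genes left out (adjusted p = 0.030) and with trend and robust settings (adjusted p = 0.015). The other settings did not call it.

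The levels of LSM10 and LSM11 moved little. LSM10 had a log2 signal of 8.90 to 9.60 with DMSO, 8.85 to 9.50 with DFO, 8.77 to 8.96 with Deferasirox and 8.92 to 8.93 with OICR623, and its changes were -0.02, -0.08 and -0.08 for the 3 compounds in that order. Both OICR623 arrays of LSM10 lay below all DMSO arrays once level-centred, the nearest values being -0.025 and -0.013, as did 11.1% of all genes. The sign of the change of LSM10 under DFO turned in the middle level alone (0.03). LSM11 ranged from 6.06 to 7.08 with DMSO, from 6.24 to 7.08 with DFO, from 6.07 to 6.29 with Deferasirox and from 6.31 to 6.42 with OICR623, with changes of 0.08, -0.04 and 0.06, the last of which turned to -0.02 with the replicate block. Deferasirox against DFO gave -0.12 for LSM11 (interval -0.22 to -0.02, unadjusted p = 0.025, adjusted p = 0.40).

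CPSF3 is the endonuclease that cuts both histone and polyadenylated transcripts, and SYMPK (symplekin) is the scaffold that holds it. CPSF3 changed by -0.02 under DFO (interval -0.11 to 0.07), by 0.03 under Deferasirox (interval -0.08 to 0.13) and by -0.04 under OICR623 (interval -0.16 to 0.08). SYMPK changed by 0.02 under each compound, with intervals of -0.10 to 0.15, -0.12 to 0.16 and -0.14 to 0.18. Neither was called. The sign of SYMPK under Deferasirox and OICR623 turned without a block, with the replicate block and after either normalization, as did that of CPSF3 under OICR623, except with the replicate block, and under Deferasirox with the replicate block.

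For decay, ERI1 is a 3' exonuclease that binds the stem-loop beside SLBP, and UPF1 is a helicase, known from nonsense-mediated decay, that SLBP recruits when replication stops. ERI1 changed by 0.04 under DFO (interval -0.08 to 0.15), by 0.07 under Deferasirox (interval -0.05 to 0.20) and by 0.08 under OICR623 (interval -0.07 to 0.23, turning to between -0.06 and -0.01 without a block, with the replicate block and after either normalization). UPF1 changed by 0.02 (interval -0.06 to 0.09), -0.04 (interval -0.12 to 0.05) and -0.01 (interval -0.11 to 0.09). For LSM10, LSM11, CPSF3, SYMPK, ERI1 and UPF1 together, no interval reached below -0.18 or above 0.23 for any compound.

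Counted together, 1 of the 10 factors was higher and 1 lower under DFO, where limma called 4.6% of all genes (1.89% higher and 2.72% lower). Under Deferasirox 1 was higher and 0 lower (5.84% of all genes called, 2.83% higher and 3% lower), and under OICR623 0 were called (0.734% of all genes, 0.337% higher and 0.397% lower). At an unadjusted p under 0.05 there were 4, 3 and 1 factors for DFO, Deferasirox and OICR623, beside 15.7%, 18% and 10.7% of all genes. The median change of the 10 was 0.03, 0.02 and 0.02, beside 0.00 over all genes for each compound. Between compounds, whose doses differ, 0 of 10 were called by limma in any of the 3 pairs. Of all genes, 0.0272% were higher and 0.0163% lower (0.0435% in all) for Deferasirox against DFO, 0.158% and 0.0109% (0.168% in all) for OICR623 against DFO, and 0.0598% and 0.0272% (0.0869% in all) for OICR623 against Deferasirox. At an unadjusted p under 0.05 there were 1, 1 and 0 factors. Without a block limma called 0 factors against DMSO, with 0 at an unadjusted p under 0.05, beside 0.245%, 0.234% and 0.038% of all genes for DFO, Deferasirox and OICR623.

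**Figure D2:**
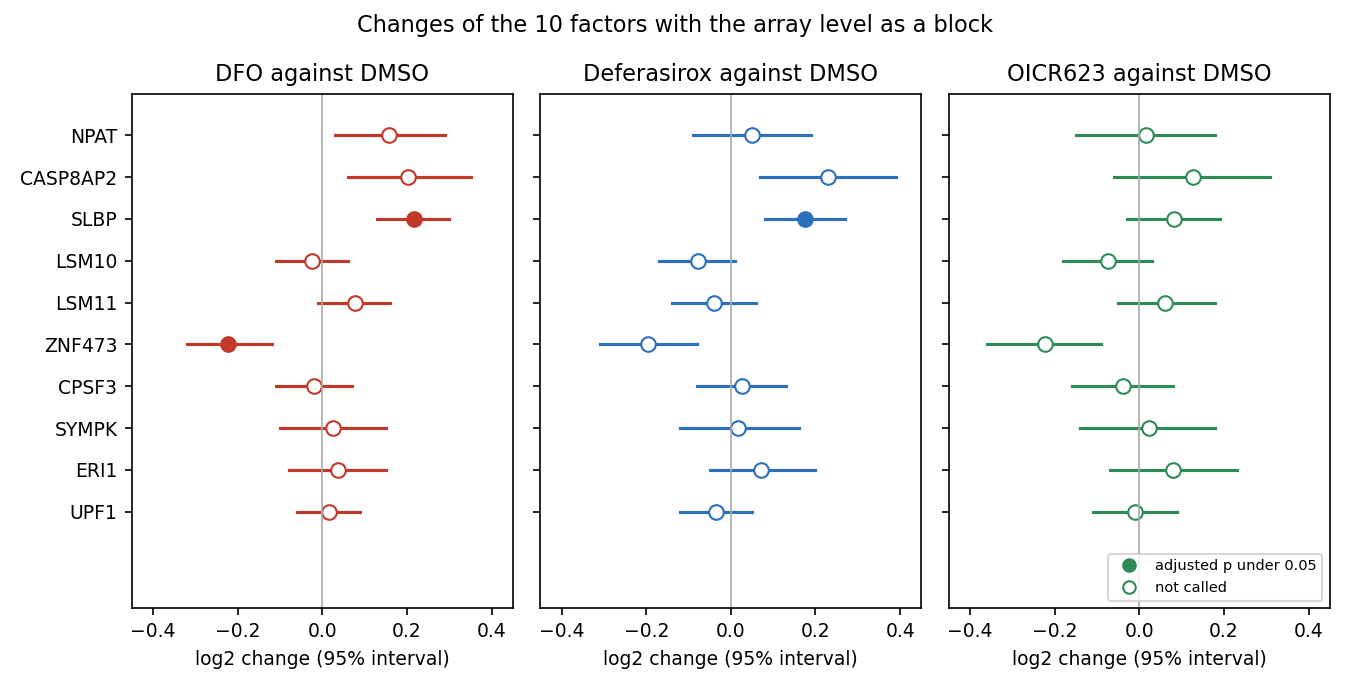
Change of each of the 10 factors against DMSO (x axis, log2, with the level as a block) for each compound, with 95% intervals and filled points for an adjusted p under 0.05. SLBP under DFO and Deferasirox and ZNF473 under DFO are filled, and the intervals of the 6 factors other than NPAT, CASP8AP2, SLBP and ZNF473 span 0.

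The other genes of the pathway were read from lists drawn up by name. For these and all lists below, the shares of all genes called higher and lower were 1.89% and 2.72% under DFO. They were 2.83% and 3% under Deferasirox, and 0.337% and 0.397% under OICR623. At an unadjusted p under 0.05 they were 15.7%, 18% and 10.7% in either direction, so list counts near these shares say nothing particular about a list. Of 12 measured partners in histone gene transcription, 6 rose and 0 fell under DFO: CCNE2 by 0.98 (SE 0.05) and CCNE1 by 0.75 (SE 0.06), the cyclins that drive NPAT phosphorylation, E2F2 by 0.42, E2F1 by 0.30, with CDC25A and CDK2 as the other two. Under Deferasirox 5 rose and 0 fell, CCNE2 by 1.00, CCNE1 by 0.85, E2F2 by 0.29, CDC25A by 0.22, with E2F1 as the other one. Under OICR623 CCNE2 rose by 0.63 (SE 0.06, adjusted p = 0.0012) and the other 11 were not called. Without a block none of these partners, nor any gene of the lists below, was called.

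Of 9 measured partners in the U7 particle, cleavage complex and cap-binding complex, among them CPSF2, CSTF2 and SNRPD3, 0 were called for any compound by limma and 0 had an unadjusted p under 0.05. Their changes lay between -0.08 and 0.13 over the 3 compounds. The U7 RNA gene RNU7-1 was not analysed here. Of 13 factors of general poly(A) end processing, CSTF1, a subunit of the cleavage stimulation factor, fell by 0.22 under DFO and by 0.17 under Deferasirox, where CSTF2T also fell, by 0.26. Under OICR623 0 were called (3 at an unadjusted p under 0.05, beside 3 under DFO and 2 under Deferasirox).

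Among 17 partners in histone mRNA decay, such as the LSM1 to LSM7 ring, the uridyl transferases TUT4 and TUT7 and the exonucleases XRN1 and DIS3L2, 0 were called for any compound, with 1, 2 and 1 at an unadjusted p under 0.05 under DFO, Deferasirox and OICR623. Their changes lay between -0.14 and 0.14. The 4 measured nonsense-mediated decay partners of UPF1 and the 5 factors of histone mRNA export and translation gave 0 calls as well (0 and up to 1 at an unadjusted p under 0.05). Of 7 genes that act in SLBP turnover, CCNF, the cyclin of a ubiquitin ligase that targets SLBP, fell by 0.58 under DFO (SE 0.05, adjusted p = 8.7e-05) and by 0.51 under Deferasirox (SE 0.06), and CCNA2 fell by 0.25 under DFO. Under OICR623 0 were called (2 at an unadjusted p under 0.05, beside 4 under DFO and 2 under Deferasirox).

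Most genes of histone supply and of S phase were not called at an adjusted p under 0.05. Of 7 histone chaperone genes CHAF1A rose by 0.22 and ASF1A fell by 0.19 under DFO, and ASF1A fell by 0.23 under Deferasirox. Of 19 genes of DNA replication 3 rose under DFO (CDC6 by 0.28, PCNA by 0.20 and CDC45 by 0.18) and 4 under Deferasirox (CDC6 by 0.27, CDC45 by 0.20, RRM2 by 0.20 and PCNA by 0.18), with 0 lower. Under OICR623 0 chaperone and 0 replication genes were called (2 and 2 at an unadjusted p under 0.05). At that threshold limma gave 4 of the 7 chaperone and 10 of the 19 replication genes under DFO, where 15.7% of all genes passed. Under Deferasirox it gave 4 and 6, beside 18% of all genes. The median change of the replication genes was 0.11 under DFO and 0.07 under Deferasirox. Of 8 replication-independent histone genes, H2AX, whose transcripts can end either in a stem-loop or in poly(A), fell by 0.23 under DFO and by 0.24 under Deferasirox, and the other 7 were not called. Under OICR623 0 of the 8 were called (1 at an unadjusted p under 0.05, beside 3 under DFO and 3 under Deferasirox). Of the 9 epithelial markers 2 were called and 7 were not under DFO and Deferasirox, CDX2 with -0.49 and -0.77 and KRT19 with 0.35 and 0.33, and the medians of the list were -0.01 and 0.00. Their part in the results above was not tested.

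**Figure D3:**
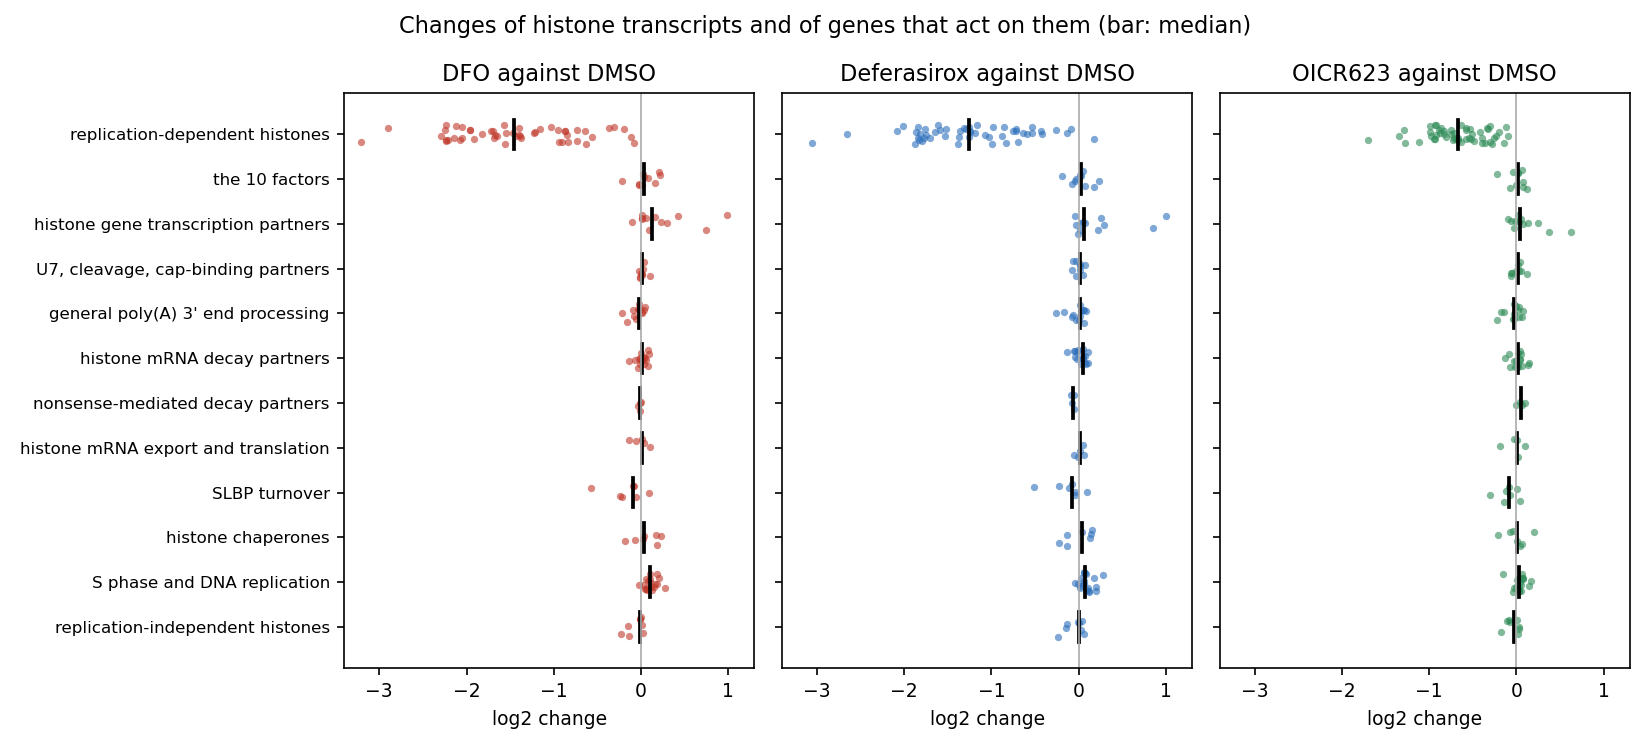
Change against DMSO (x axis, log2, with the level as a block) of each gene of 12 lists (y axis) for the 3 compounds, with a bar at the median of the list. The replication-dependent histones have medians of -1.45, -1.25 and -0.67, while the medians of the other lists lie between -0.10 and 0.13.

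Array by array, the median level-centred signal of the 52 histone genes was 0.72, 0.82, 0.81 and 0.97 in DMSO 1 to 4 and -0.72, -0.65, -0.61 and -0.49 in DFO 1 to 4. It was -0.41, -0.24 and -0.47 in Deferasirox 1 to 3 and 0.11 and 0.20 in OICR623 1 and 2, so that the OICR623 arrays lay between DMSO and the other compounds. SLBP had the reverse order of group means on this scale, and ZNF473 did not set OICR623 (mean -0.06) apart from DFO (mean -0.08) or Deferasirox (mean -0.04). The difference of OICR623 and DFO was -0.13 for SLBP (interval -0.25 to -0.02, unadjusted p = 0.023, adjusted p = 0.81), so the reverse order is a description.

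**Figure D4:**
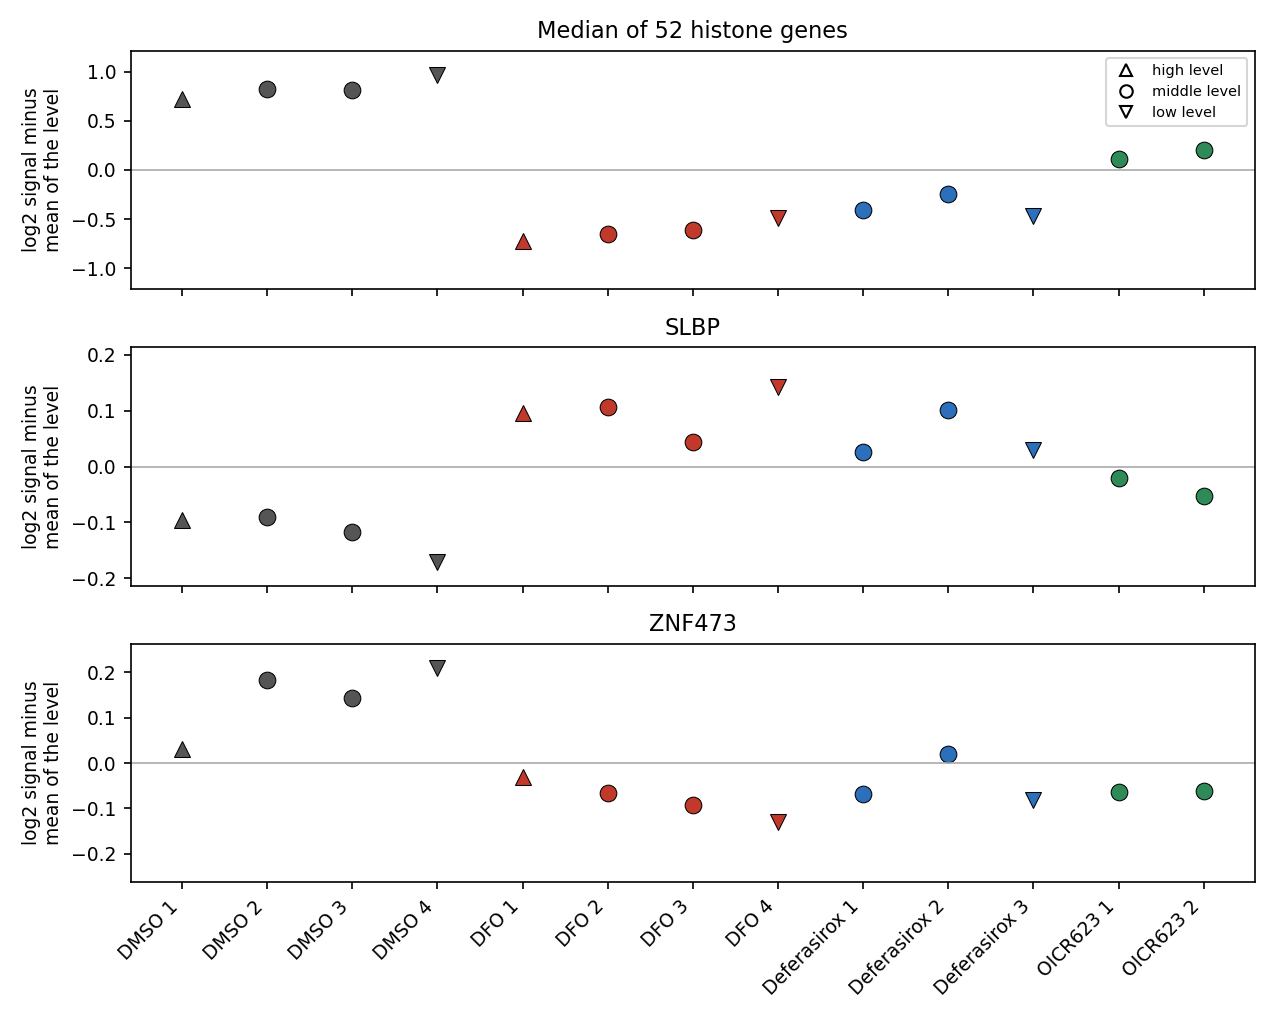
Level-centred log2 signal (y axis) of the median of 52 histone genes, of SLBP and of ZNF473 in each of the 13 arrays (x axis), shaped by level. Histones are high and SLBP is low in the 4 DMSO arrays, and the 2 OICR623 arrays lie between for both.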

How the data were processed

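The authors deposited 1 table of log2 signals for 32321 transcript clusters on 13 arrays. GCRMA and limma are named, per the submitters' processing notes; their versions, order and role are not given in the sources used here. A log2 table keeps no background or detection call, and precision is limited by how many arrays there are. Of the clusters, 19158 had 1 gene symbol in the platform annotation, 1388 several and 11775 none; 19128 matched RefSeq (GRCh38.p14, used for names and promoters). The cluster of highest mean was kept per gene, leaving 18404 genes.

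Levels were split where sorted array medians lay over 0.05 apart. All 13 arrays were fitted in limma 3.58.1 (R 4.3.3) with group and level, lmFit and eBayes, Benjamini-Hochberg adjustment and a threshold of 0.05; the script was tested on simulated data. Named were all 10 factors, the 4 histone genes of largest change per compound, up to 4 called genes of each other list per compound by smallest adjusted p, and the 5 genes most like SLBP. The factors and lists were chosen with earlier results of these data known. Same-numbered DMSO and DFO arrays deviated together (r = 0.945, 0.662, 0.738 and 0.788), but each such pair also shared a level, and the labels state no pairing. For Deferasirox r was -0.058, 0.333 and -0.324, and for OICR623 0.291 and -0.009. Alternatives were no block, the replicate number as a block, the level as a random block, median centring, quantile normalization, the middle level alone, a filter on low signal, the mean of all clusters of a gene, eBayes with trend and robust settings, each array left out and, added after seeing the data, the high level left out. Leaving out DMSO 1 or DFO 1 gives the same fit as leaving out the high level. Changes are given relative to the median of all genes where that median moved by over 0.1. Without a block it was -0.15 for Deferasirox and -0.11 for OICR623, and with the replicate block -0.24 and -0.27. The adjusted p of such a setting tests the change before that median is taken off.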

Additional observations from a re-analysis of the deposited data

Results flagged for a closer look

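On the log2 scale as deposited, 11 of 20 sets of 4 arrays (10 factors, DMSO and DFO) had an array far from the other 3. Chance flags about 1 in 20 independent sets. These sets share the same arrays, and every flag fell on DMSO 1 or DFO 1, so the 11 flags are not independent. In DMSO 1 these were SLBP at 10.97 (others 9.95 to 10.02), NPAT at 10.10 (9.24 to 9.38), LSM10 at 9.60 (8.90 to 8.99), ERI1 at 8.78 (7.77 to 7.93) and UPF1 at 10.79 (9.88 to 10.03). In DFO 1 they were SLBP at 11.16 (others 10.15 to 10.26), CASP8AP2 at 8.71 (7.52 to 7.58), LSM11 at 7.08 (6.24 to 6.38), ERI1 at 8.78 (7.86 to 7.95), UPF1 at 10.76 (9.92 to 10.04) and SYMPK at 9.92 (8.98 to 9.13). DMSO 1 and DFO 1 are the arrays of the high level, and 0 of 20 sets stood apart once level-centred. The high level holds these arrays alone, so centring takes off the brightness they share. The count of 0 therefore cannot clear the flags.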

How the results depend on the processing

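Without a block, with the replicate block, with arrays centred on their medians, after quantile normalization and in the middle level alone, 0 factors were called under DFO, 0 under Deferasirox and 0 by the F test. With the level as a random block 0 were called under Deferasirox and 0 by the F test, and 2 and 2 were with the dimmest genes left out and with trend and robust settings. The replicate block on the 8 DMSO and DFO arrays left 1 call under DFO, SLBP (adjusted p = 0.042). Histone calls were 25, 24 and 0 without a block for DFO, Deferasirox and OICR623, and for OICR623 3 with the replicate block, 4 after centring and 6 after quantile normalization. The cause was not tested. Leaving out each array gave 1 to 2 factors for DFO, 0 to 1 for Deferasirox, 0 to 0 for OICR623 and 0 to 1 for the F test, with 48 to 49, 46 to 49 and 7 to 28 histones and histone medians of -1.50 to -1.43, -1.34 to -1.19 and -0.71 to -0.61. Signs that turned for OICR623 were, without a block, SLBP -0.05, NPAT -0.07, CASP8AP2 -0.04, ERI1 -0.04, CPSF3 0.02 and SYMPK -0.05; with the replicate block, SLBP -0.08, NPAT -0.08, CASP8AP2 -0.15, LSM11 -0.02, ERI1 -0.06 and SYMPK -0.12. After centring they were SLBP -0.06, NPAT -0.08, CASP8AP2 -0.05, ERI1 -0.05, CPSF3 0.02 and SYMPK -0.05, and after quantile normalization SLBP -0.03, NPAT -0.04, CASP8AP2 -0.01, ERI1 -0.01, CPSF3 0.04 and SYMPK -0.01. For Deferasirox they were ERI1 0.00 and SYMPK -0.06 without a block, CPSF3 -0.04 and SYMPK -0.07 with the replicate block, and SYMPK -0.05 after centring and -0.02 after quantile normalization. Leaving out each array also turned signs near 0, within LSM10 -0.05 to 0.00, CPSF3 -0.04 to 0.00 and SYMPK 0.00 to 0.05 for DFO, SYMPK -0.01 to 0.05 for Deferasirox, and NPAT -0.04 to 0.08, UPF1 -0.03 to 0.02, CPSF3 -0.11 to 0.03 and SYMPK -0.09 to 0.13 for OICR623. LSM10 under DFO was 0.03 in the middle level alone and 0.00 without the high level.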
